A study of Mus musculus with 8 samples.

Results

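The change in mouse adipose tissue within the first week after birth, from postnatal day 2 (P2) to postnatal day 5 (P5), was read from 2 of the 8 arrays of a developmental series. The members are the 8841 of 25697 probes that stood at 7.5 or more, on the deposited log2 scale, on the P2 or the P5 array. This level was used as the line above which a probe could be told from the floor of the values, the lowest of which was 6.66. A difference of 1 log2, a fold of 2, was taken as the size to describe.

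The series followed developing white adipose tissue of C57BL/6 mice at e15.5, e16.5, e17.5, e18.5, P0, P2, P5 and P12, with 1 pool of total RNA on 1 Illumina MouseRef-8 array per stage. The labels describe each pool as tissue from at least 3 embryos, also for the postnatal stages, and elsewhere give another number of embryos. No genotype, treatment, sex or fat depot is named for the pools, and all pools carry the same strain label. Each stage had 1 pool and no replicate, so the spread between animals of a stage was not measured and no difference below has an error or a p-value.

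White adipocytes store triglyceride in a single large droplet and release fatty acids and hormones such as leptin. Brown and beige adipocytes hold many small droplets and mitochondria that carry the uncoupling protein UCP1, which lets protons return across the inner membrane and so turns the energy of fat into heat. Fat of a newborn mouse grows while milk supplies most of its energy as lipid, and its fetal growth programme, with imprinted genes such as Igf2 and Dlk1, is known to be switched down after birth.

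The promoters of the genes with large rises that the results turn on are shown here, since Ucp1, Fabp3 and Cox7a1 rose together and Retnla had the next largest rise after Ucp1. Each window runs from 250 bases before to 50 bases after the start of the gene in RefSeq, on the plus strand of GRCm38.p6, and all 4 genes were matched by symbol. Capitals mark each match, on either strand, to one of 4 short motifs. AGGTCA is the core element that nuclear receptors bind, and TGACG the core of the element that answers to cyclic AMP. TATAAA is the element that places the polymerase near the start, and CCAAT, which reads ATTGG on the other strand, is a common upstream element. The Ucp1 window is chr8:83290098-83290397, the Fabp3 window chr4:130308488-130308787, the Cox7a1 window chr7:30183921-30184220 and the Retnla window chr16:48842359-48842658.
Ucp1: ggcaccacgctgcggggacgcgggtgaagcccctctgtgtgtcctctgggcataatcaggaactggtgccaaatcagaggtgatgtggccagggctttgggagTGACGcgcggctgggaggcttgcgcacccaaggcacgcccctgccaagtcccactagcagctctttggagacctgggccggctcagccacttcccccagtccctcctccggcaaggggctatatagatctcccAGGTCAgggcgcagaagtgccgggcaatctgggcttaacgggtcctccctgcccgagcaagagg
Fabp3: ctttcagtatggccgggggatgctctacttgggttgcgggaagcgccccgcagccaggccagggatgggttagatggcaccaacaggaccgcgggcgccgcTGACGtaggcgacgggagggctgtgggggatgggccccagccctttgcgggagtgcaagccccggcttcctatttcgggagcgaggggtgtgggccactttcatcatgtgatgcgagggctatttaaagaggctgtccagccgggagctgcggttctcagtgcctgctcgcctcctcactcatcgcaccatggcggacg
Cox7a1: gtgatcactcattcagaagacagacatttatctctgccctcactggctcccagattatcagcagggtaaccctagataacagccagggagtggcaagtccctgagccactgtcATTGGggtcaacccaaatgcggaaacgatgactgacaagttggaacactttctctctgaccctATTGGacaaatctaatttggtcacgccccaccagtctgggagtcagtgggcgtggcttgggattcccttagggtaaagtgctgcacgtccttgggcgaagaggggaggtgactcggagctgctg
Retnla: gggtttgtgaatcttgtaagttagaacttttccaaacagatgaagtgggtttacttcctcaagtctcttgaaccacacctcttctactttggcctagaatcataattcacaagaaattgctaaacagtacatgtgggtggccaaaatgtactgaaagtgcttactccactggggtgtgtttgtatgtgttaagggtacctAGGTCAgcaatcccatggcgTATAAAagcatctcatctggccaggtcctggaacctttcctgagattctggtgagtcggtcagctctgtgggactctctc

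The Ucp1 window held TGACG from -147 to -143 and AGGTCA from -14 to -9, counted from the start of the gene. The Fabp3 window held TGACG from -149 to -145. The Cox7a1 window held CCAAT on the minus strand from -137 to -133 and again from -74 to -70. The Retnla window held AGGTCA from -50 to -45 and TATAAA from -30 to -25. No match overlapped another. Among 32851 mouse promoter windows of this length, 16.3% held AGGTCA, 20.8% TGACG, 13.6% TATAAA and 37.4% CCAAT, so none of these matches is rare, and a match describes letters, not a site in use.

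The arrays had equal distributions of values. The median was 6.99 on both, 8320 probes reached 7.5 at P2 and 8324 at P5, and the sorted values of the 8 columns were equal to within 0.0050. A change in total signal would therefore not be visible. In such bulk tissue, fewer cells of a type and less RNA per cell cannot be told apart.

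Adult beta globin probes went against the common strain label between P2 and P5. Hbb-bt, a beta globin of the haplotype that C57BL/6 mice carry, stood between 9.41 and 10.96 on the 6 arrays from e15.5 to P2, then at 7.33 at P5 and 7.18 at P12. Hbb-b2, a beta globin of the haplotype found in strains such as BALB/c, stood between 6.84 and 7.11 on those 6 arrays, then at 9.33 at P5 and 9.19 at P12. The alpha globin Hba-a1 was 15.05 and 15.10 at P2 and P5, and 15.10 is the highest value deposited for any probe, so a change there could not be seen. These globins are near-identical copies, so a probe may read more than 1 of them. The P5 and P12 pools thus stood apart from the earlier 6 in which beta globin probe was bright, and the part of this in the results below was not tested.

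Hbb-b2 was 1 of a set of probes that held 1 level up to P2 and another from P5 on, whereas Hbb-bt varied too much before P5 to belong to it. A probe was called flat on both sides when its values spanned no more than 0.75 log2 over the 6 arrays up to P2 and over the 2 from P5 on, with every value on one side at least 1 log2 from every value on the other. There were 56 such probes, 19 higher and 37 lower from P5 on, and they made up 14.4% of the probes that rose and 19.6% of those that fell. At the other boundaries between stages the same rule found 14 higher and 0 lower after e16.5, 1 and 0 after e17.5, 0 and 0 after e18.5, and 2 and 1 after P0, though these boundaries have other numbers of arrays on each side and are not equally demanding. Of the 37 lower probes, 25 stood below 7.5 at P5, and of the 19 higher ones, 13 stood below 7.5 at P2. The named genes among them lay on 15 chromosomes.

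Atf4, a transcription factor of the stress response to misfolded protein and amino acid lack, showed the pattern plainly. Its probe read 9.71, 9.75, 9.78, 9.70, 9.77 and 9.76 on the 6 arrays up to P2, and 7.15 and 7.16 at P5 and P12. Tomm22, a receptor of mitochondrial protein import, went from 10.34 to 7.04 and Rps2, a ribosomal protein, from 14.46 to 13.04. Both Rpl29 probes fell, from 12.41 to 9.71 and from 10.61 to 7.19, and ribosomal protein probes may also read processed copies of these genes. Among flat probes on the rising side were Gsta4, a glutathione transferase, from 7.22 to 9.38, and the class I histocompatibility gene H2-T10, from 7.09 to 10.02. Without the 56 probes, a setting chosen after the values had been seen, 113 probes rose and 152 fell.

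**Figure D1:**
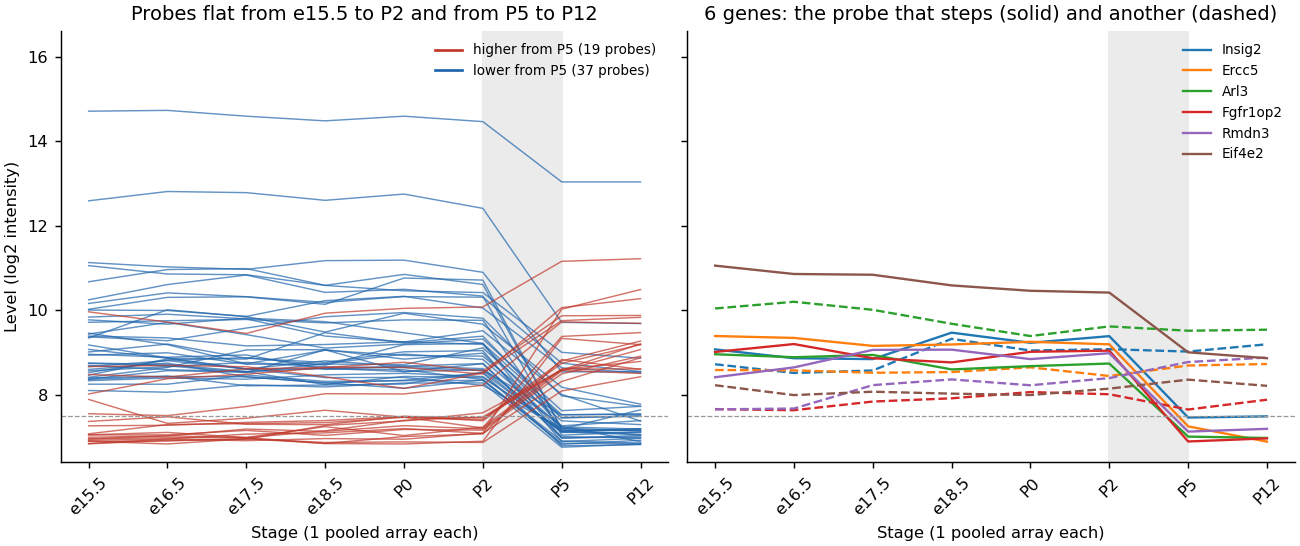
Left, the level (log2 intensity) of the 56 probes that were flat from e15.5 to P2 and from P5 to P12, against stage, with 1 line per probe, red for the 19 higher and blue for the 37 lower from P5 on. Right, 6 genes with a probe that steps (solid line) and another probe that does not (dashed line of the same colour). Grey marks P2 to P5 and the dashed horizontal line is 7.5.

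Between P2 and P5, 132 of the 8841 probes (1.49%) were higher by 1 log2 or more and 189 (2.14%) were lower, together 3.63%. The differences had a median of 0.0064 and an SD over probes of 0.45, and 85.5% of probes lay within 0.5 of 0. Differences of 2 log2 or more were seen for 21 probes upward and 36 downward. The probes nearest the threshold differed by 1.0024 and 0.9989 upward and by -1.0015 and -0.9956 downward. Of the 132 higher probes, 34 stood below 7.5 at P2, and of the 189 lower ones, 96 stood below 7.5 at P5, so many falls ended at the floor and their size is a lower bound.

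The other steps of the series give the scale of this change. The share of kept probes past 1 log2 was 5.55% from e15.5 to e16.5, 2.81% and 2.43% for the next steps, 3.53% from e18.5 to P0, 2.82% from P0 to P2 and 2.08% from P5 to P12. The steps are of unequal length and neighbouring steps share an array. With 7.5 required on both arrays, 191 probes were past 1 log2 from P2 to P5. Of the 132 higher probes, 123 (93.2%) were higher at P5 than on any of the 6 earlier arrays and 114 (86.4%) at both P5 and P12, against 25.0% and 18.1% of all kept probes. Of the 189 lower probes, 149 (78.8%) were lower at P5 than on any earlier array and 133 (70.4%) at both P5 and P12, against 21.1% and 16.9% of all kept probes. These probes were chosen for P5 lying above or below P2, so the shares describe them and are not set against the background as a result.

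**Figure D2:**
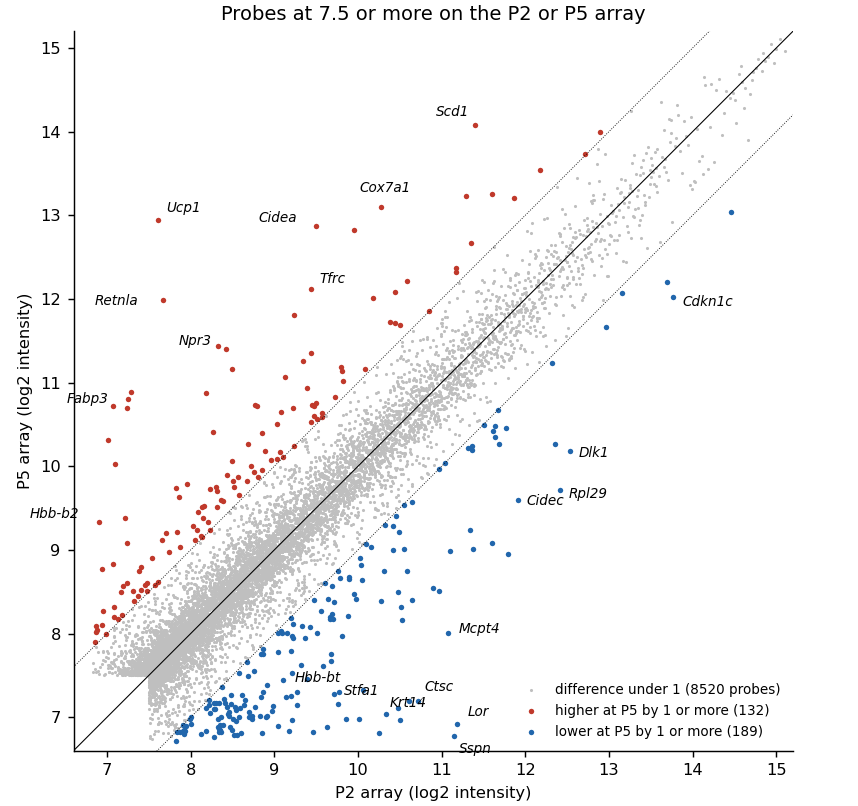
The level of each of the 8841 kept probes at P5 (vertical axis, log2 intensity) against P2 (horizontal axis, log2 intensity). The solid line marks equal levels and the dotted lines a difference of 1 log2, with 132 probes above them (red) and 189 below (blue). Ucp1 and Retnla lie farthest above the line and Sspn and Lor farthest below it.

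For the description by function a gene was represented by its brightest probe over P2 and P5, which gave 7008 genes or unnamed probes, of which 113 (1.61%) rose and 157 (2.24%) fell, together 3.85%. The median difference over all of them was 0.0051, and a list whose shares are near these is not set apart from the rest by its counts. A gene at 7.5 or more on 1 array alone was kept because it was high there, which sets the direction of its difference. Counts and medians over kept genes are therefore descriptions, and for lists with many such genes the count over genes at 7.5 or more on both arrays is given too. Of the 247 named genes past 1 log2, 78 belonged to at least 1 of the 47 gene lists used and 169 to none.

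The list of brown fat and thermogenesis held the largest single rise, that of Ucp1. Its members Fabp3, Cidea and Cox7a1 were also among the 15 largest rises, beside genes outside the list. Of 35 genes listed, 32 were on the array and 18 were kept, of which 8 rose and 0 fell, with a median difference of 0.94. Of the 13 at 7.5 or more on both arrays, 7 rose and 0 fell. Ucp1 went from 7.61 to 12.95, a 40.6-fold rise, and had its earlier high at e18.5, at 8.39. Cidea, which encodes a lipid droplet protein of brown fat, rose from 9.50 to 12.88, or 10.4-fold. Ucp1 was lower again at P12, at 11.95, whereas Cidea was at 13.37.

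Several of the brown fat genes that rose encode mitochondrial and fatty acid handling proteins. Fabp3, the heart-type fatty acid binding protein, went from 7.25 to 10.80, at least 9.87-fold. Cox7a1 and Cox8b encode the muscle and heart forms of cytochrome oxidase subunits, which brown fat also uses. Cox7a1 rose from 10.28 to 13.10 and Cox8b from 11.61 to 13.26, and both had been at 11.82 and 12.47 at e18.5. Cpt1b, which loads fatty acids for entry into mitochondria, rose from 8.77 to 10.74 on its brightest probe and from 7.48 to 8.50 on its other kept probe.

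Pank1, a pantothenate kinase at the start of coenzyme A synthesis, rose from 7.95 to 9.79, and Letmd1, an inner mitochondrial membrane protein, from 9.44 to 10.53. The coactivators Ppargc1a and Ppargc1b, which drive mitochondrial gene expression, differed by less, at 7.43 and 7.79 and at 8.83 and 9.14. Plin5, a droplet protein of oxidative tissues, was 8.60 and 9.37. Probes for Prdm16, Dio2, Elovl3, Zic1 and Lhx8, which are also known from brown fat, stayed below 7.5 on both arrays, at most at 7.20.

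Fabp3, Cpt1b, Cox7a1 and Cox8b are known from muscle as well, and Fabp3 had earlier highs of 9.56 at e15.5 and 9.55 at P0, stages at which muscle markers were high. Of 31 listed muscle genes 27 were on the array and 12 were kept, of which 0 rose and 5 fell, with a median of -0.82. Only 4 of the 12 stood at 7.5 or more on both arrays, of which 1 fell, with a median of -0.30. All 27 averaged 7.90 at P2 and 7.43 at P5. Myh8, a myosin of developing muscle, went from 10.01 to 6.98, and Acta1, the skeletal actin, from 10.27 to 8.39, while Myl4, a myosin light chain gene, was 9.68 and 10.26. The part of muscle in the levels of the genes it shares with brown fat was not tested.

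**Figure D3:**
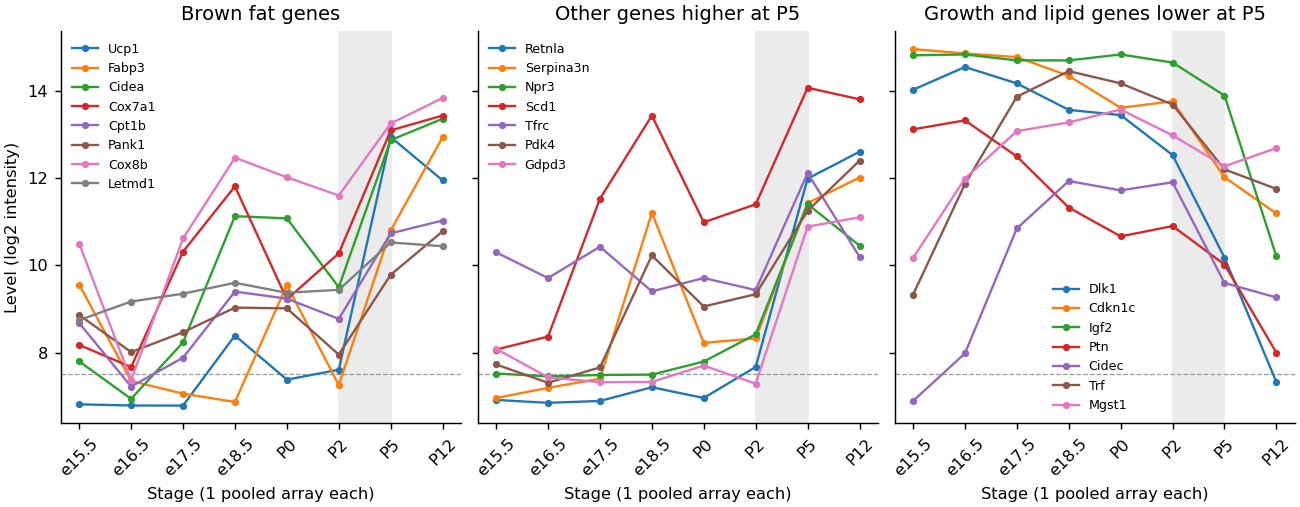
Level (log2 intensity) by stage, 1 pooled array each, for 8 brown fat genes (left), 7 other genes with higher levels at P5 (middle) and 7 growth and lipid genes with lower levels at P5 (right). Grey marks P2 to P5 and the dashed line is 7.5. The 8 genes on the left rose by 1.09 to 5.34 in this interval, and in the right panel Igf2, Ptn and the brightest probe of Mgst1 differed by less than 1.

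Fatty acid oxidation genes mostly differed upward, with few of them past the threshold. Of 26 listed genes 19 were kept, 3 rose and 0 fell, and 18 of the 19 differences were above 0, with a median of 0.46. The carnitine carrier Slc25a20, which exchanges acylcarnitine across the inner membrane, rose from 11.17 to 12.33. The thiolase Acaa2, of the last step of each oxidation cycle, went from 10.85 to 11.86 on its brightest probe, with differences of 0.83, 0.82 and 0.28 on its other kept probes. With the mean of a gene's kept probes 2 genes of the list rose. Etfdh, which passes electrons from this pathway to ubiquinone, was 10.52 and 11.48, and Hadhb of the trifunctional protein 9.95 and 10.89.

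The genes downstream of fatty acid oxidation differed less. Of 24 kept genes of the citric acid cycle and pyruvate use, 1 rose and 0 fell, with a median of 0.31. The riser was Pdk4, a kinase that shuts off pyruvate dehydrogenase, which went from 9.34 to 11.26. Ogdh, Sdhc and Suclg1 of the cycle itself differed by 0.98, 0.98 and 0.96, and the other kept probe of Suclg1 rose from 11.17 to 12.37. With the mean of a gene's kept probes 2 genes of the list rose. Of 34 kept genes of the respiratory chain and ATP synthase, 0 rose and 1 fell, with a median of 0.21 and 28 above 0. The one that fell was Atp5g1, an ATP synthase subunit, from 11.68 to 10.67. Some respiratory chain genes outside this list did rise. They include Cox7a1 and Cox8b, given above with brown fat. Ndufb10, a complex I subunit gene named after its values had been seen, rose from 8.14 to 9.52.

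Glucose and amino acid pathways held few changes. Of 14 kept glycolysis and glucose transport genes 1 rose, Pygl, the liver-type glycogen phosphorylase, from 10.18 to 12.01 on its brightest probe and from 8.39 to 9.58 on the other. The insulin-responsive transporter Slc2a4 was 8.57 and 8.89. Of 14 kept genes of branched-chain amino acid breakdown 0 rose or fell by 1 log2, while 13 differences were above 0, with a median of 0.29.

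Among lipid-making genes the desaturase Scd1 and the lipogenic regulator Thrsp rose and most others did not. Scd1, which makes monounsaturated fatty acids, went from 11.40 to 14.08, or 6.39-fold, and Thrsp from 9.44 to 11.36. Both had been high at e18.5, at 13.44 and 11.24, and lower at P0, at 10.99 and 8.82. Of the 16 kept genes of the list 2 rose and 0 fell, with a median of -0.02. The carboxylase Acaca, of the first committed step, was 11.65 and 11.35, and the citrate lyase Acly 12.09 and 11.80.

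Cholesterol synthesis had 16 kept genes, of which 0 passed 1 log2 in either direction and 13 had differences below 0, with a median of -0.14. Squalene epoxidase, Sqle, had the lowest difference among them, at 10.04 and 9.26.

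The white adipocyte genes, which check the tissue label, were high on both arrays. Adiponectin, Adipoq, was 13.52 and 13.51, the lipoprotein lipase gene Lpl 14.85 and 14.93, and the triglyceride lipase gene Pnpla2 13.72 and 14.15. Probes for Fabp4, Cd36, Retn, Pck1 and Rbp4, which adipocytes are also known to express, stayed below 7.5 on both arrays. Of 37 listed genes 30 were kept, of which 4 rose and 1 fell, with a median of 0.25.

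The 4 risers were Cidea, Ces1d, Sncg and Lep. Ces1d, a carboxylesterase that acts on stored triglyceride, rose from 11.30 to 13.23. Lep, which encodes leptin, went from 12.71 to 13.74, after a larger step from 9.62 at P0. Sncg, gamma-synuclein, rose from 12.89 to 14.00 on its brightest probe and by 1.07 on the other. The gene that fell was Cidec, a droplet fusion protein of white fat and a relative of Cidea, from 11.91 to 9.60, or 4.97-fold, with 9.26 at P12.

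Other genes with a part in fat storage fell as well, named here after their values had been seen. Gpat3, an acyltransferase of the first step of triglyceride synthesis, fell on both of its probes, with differences of -1.10 and -1.12. Dgat2, of the last step, was 12.87 and 13.79. Acot1, a cytosolic acyl-CoA thioesterase, went from 10.52 to 8.32, and Apoc4, an apolipoprotein gene, from 10.65 to 8.41. Hcar2, the receptor through which hydroxybutyrate slows lipolysis, went from 10.02 to 8.90.

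Transcription regulators of fat cell formation held 1 riser and 0 genes that fell among 23 kept, with a median of 0.04. Klf9, which glucocorticoid and thyroid hormones induce, rose from 10.51 to 11.69. Pparg, the master regulator of adipocytes, was 11.93 and 11.61, and Cebpa 8.73 and 8.61. Glucocorticoid and fasting response genes, a list that shares Klf9 and Pdk4 with those above, held 3 risers and 1 gene that fell among 16 kept, with a median of 0.34. Tsc22d3, a direct glucocorticoid target, was 9.85 and 10.44.

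**Figure D4:**
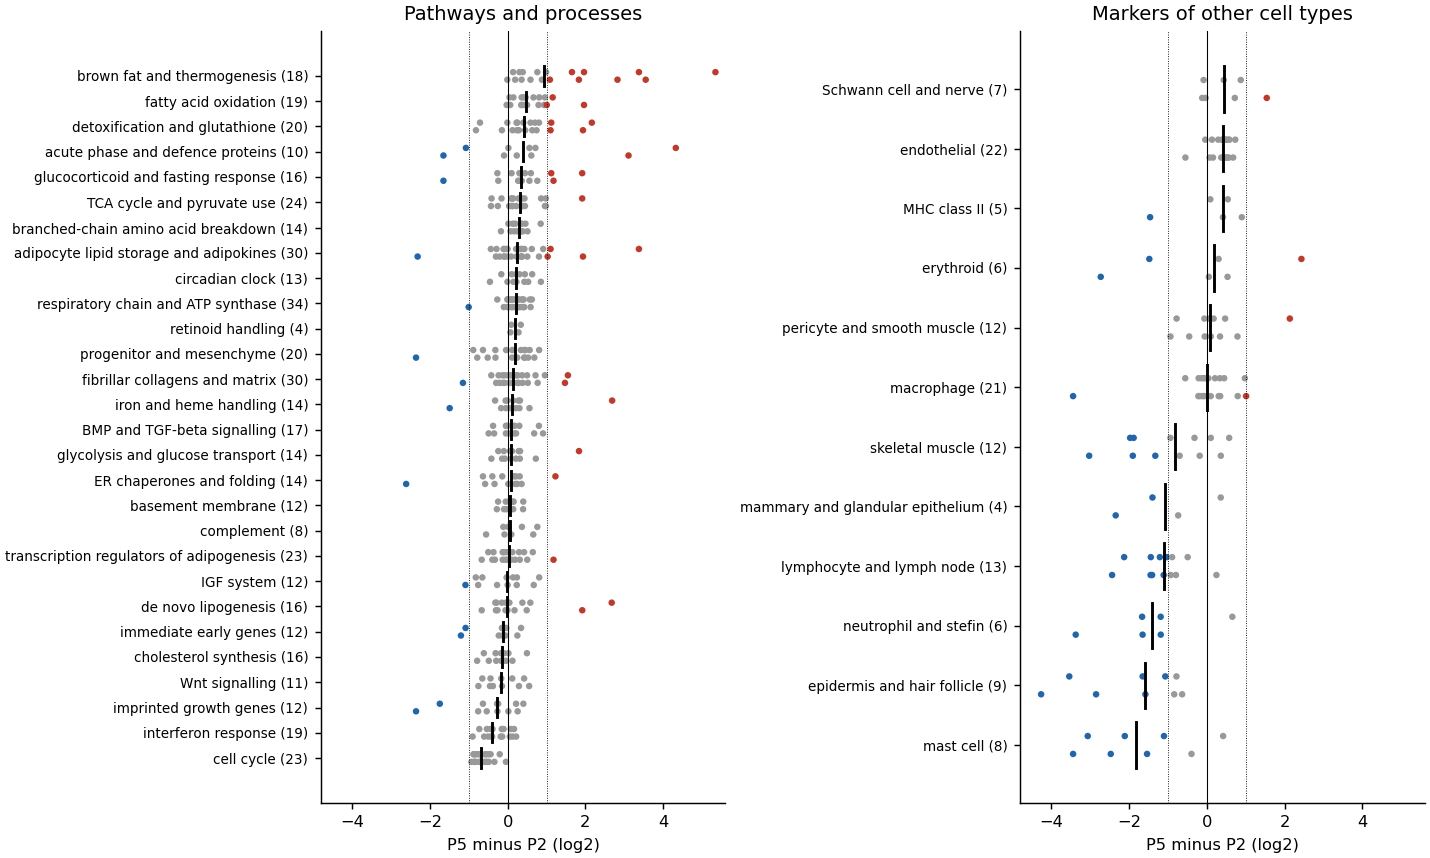
Differences between P5 and P2 (log2, horizontal axis) for the kept members of each list with 4 or more, in pathways and processes (left) and markers of other cell types (right), with 1 point per gene and the number of kept genes in brackets. Black bars are list medians, dotted lines 1 log2, and red and blue points genes past it. The brown fat list has the highest median (0.94) on the left and the mast cell list the lowest (-1.82) on the right.

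Secreted and defence genes included the next largest rise after Ucp1. Retnla, a resistin-like protein known from alternatively activated macrophages and from white fat, went from 7.67 to 11.99, or 20.0-fold, and was 12.61 at P12. Serpina3n, a secreted protease inhibitor, rose from 8.32 to 11.43 and had been at 11.21 at e18.5. In the same list of acute phase and defence genes Lcn2, an iron-siderophore binding protein of neutrophils and adipocytes, fell from 8.77 to 7.12, and Itih4, a plasma protein, from 8.22 to 7.14. The count was 2 risers and 2 that fell among 10 kept. Of the 6 at 7.5 or more on both arrays, 2 rose and 0 fell. Lcn2 and Itih4 were kept through P2 alone, so they had to be lower at P5. Haptoglobin, Hp, was 12.97 and 12.99.

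Probes for the plasma protease inhibitors Serpina1b and Serpina1d rose from 7.24 to 10.70 and from 7.01 to 10.32. These genes are near-identical copies, so a probe may read several of them. They had been at 9.64 and 9.32 at e16.5 and near the floor at P0 and P2. Kng1, another plasma protein gene, went from 6.94 to 8.77. All 3 are known mainly from liver, and of the 12 listed liver markers only Apoa2 was kept, at 7.10 and 7.91, whereas albumin and the other 10 stayed below 7.5 on both arrays.

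Among receptors, Npr3 and Tfrc were 2 of the 15 largest rises. Npr3, the clearance receptor of natriuretic peptides, went from 8.42 to 11.41, or 7.94-fold. Tfrc, the transferrin receptor through which cells take up iron, rose on both probes, from 9.43 to 12.12 and from 9.24 to 11.80, while Trf, which encodes transferrin itself, fell from 13.69 to 12.21. These were the only genes past 1 log2 among 14 kept in the list of iron and heme handling. Rarres2, the chemokine-like adipokine chemerin, rose from 11.87 to 13.21, and Bcl6, a transcriptional repressor, from 9.80 to 11.19, both named after their values had been seen.

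The remaining genes among the 15 largest rises were metabolic or of less known function. Gdpd3, a lysophospholipase of the glycerophosphodiesterase family, went from 7.29 to 10.89, at least 10.5-fold. Gpt2, the mitochondrial alanine aminotransferase, rose from 8.18 to 10.87. Tmem45b, a membrane protein gene, went from 9.95 to 12.82 and had climbed from 6.78 at e15.5. Further mitochondrial genes past the threshold, named after their values had been seen, were Gpd2, the glycerol phosphate shuttle enzyme, from 8.69 to 10.27, and Slc25a42, a coenzyme A carrier, from 7.75 to 8.97.

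Detoxification genes gained 4 risers and 0 that fell among 20 kept, with a median of 0.43. Besides Gsta4 and Ces1d the 4 risers by brightest probe were Cyp2e1, a cytochrome P450, from 7.40 to 8.52, and catalase, Cat, from 9.73 to 10.83. Gsta4 and Cyp2e1 were kept through P5 alone, so they had to be higher at P5. Cyp2e1 had been at 11.20 at P0 and reached 12.13 at P12. Mgst1, a membrane glutathione transferase, was 12.99 and 12.28 on its brightest probe and 11.60 and 9.08 on the other.

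Dlk1 and Cdkn1c, imprinted growth genes of fetal life, were lower at P5. Dlk1, the preadipocyte factor that holds back fat cell formation, fell from 12.53 to 10.18, or 5.11-fold, and was 7.32 at P12. Cdkn1c, an imprinted inhibitor of the cell cycle, fell from 13.77 to 12.03. Igf2 was 14.66 and 13.90, short of the threshold, before a level of 10.21 at P12. Among 12 kept imprinted genes 0 rose and 2 fell, with a median of -0.27. Mest, another of them, had 3 kept probes with differences of -0.63, -0.69 and -1.01.

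Of 20 kept progenitor and mesenchyme genes Dlk1 alone passed the threshold, with a list median of 0.18. The growth factor gene Ptn was 10.90 and 10.02, and Pdgfra, a receptor of fibroblast-like progenitors, 10.38 and 10.91. In the IGF system Igf2bp3, a fetal RNA-binding protein, fell from 8.85 to 7.76 on its brightest probe, the only gene past 1 log2 among 12 kept. Its other kept probe differed by -0.54, and with the mean of kept probes 0 genes of this list passed. Igf1 was 10.88 and 10.23.

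All 23 kept genes of the cell cycle list were lower at P5, and 0 of them by 1 log2. Genes of dividing cells outside the list could pass it. Hjurp went from 10.59 to 8.75 and Pclaf from 8.63 to 7.15. Both were named after their values had been seen, with no count behind them. Their median was -0.69 and their differences ran from -0.93 to -0.04. Tk1, which makes thymidine phosphate for DNA synthesis, was 9.19 and 8.25, the spindle protein gene Prc1 10.64 and 9.76, and the topoisomerase gene Top2a 9.35 and 8.54. Averaged over the 23 genes, the level stood at 10.44 at e16.5, 8.59 at P0, 9.20 at P2 and 8.57 at P5, so P2 stood above P0 and the P5 value was near that of P0.

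Histone genes, a family grouped after its values had been seen, split. Of 30 kept, 4 fell and 3 rose, with a median of -0.03. The 4 that fell, H2ac7, H2ac10, H2ac12 and H2ac15, had differences from -1.32 to -1.12, and their probes may read each other's transcripts. H4c8 rose from 9.04 to 10.51, H2ac18 from 8.67 to 9.82 and H4c11 by 1.01.

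Extracellular matrix genes mostly kept their levels within 1 log2. Of 30 kept collagen and matrix genes 2 rose and 1 fell, with a median of 0.13. Fbln1, fibulin 1, went from 8.85 to 10.40 on its brightest probe, with another kept probe at 7.19 and 7.65, and the microfibril gene Mfap4 from 9.22 to 10.70. Col1a2 stood at 9.15 at P2 and had a difference of -1.15, while Col1a1, whose product joins it in type I collagen, was 12.54 and 12.65. Basement membrane genes held 0 of 12 past the threshold, with a median of 0.06. Prelp, a small leucine-rich matrix protein gene outside the list, rose from 12.17 to 13.55.

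The signalling lists showed little change of 1 log2 or more. Of 11 kept Wnt genes and 17 kept BMP and TGF-beta genes 0 rose or fell, with medians of -0.16 and 0.10. Of 12 immediate early genes 2 fell, Fos from 8.69 to 7.49 and the matricellular gene Ccn2 from 10.65 to 9.57, while Egr1 was 10.84 and 10.71. Of 19 kept interferon response genes 0 passed, with a median of -0.39 and 14 below 0. The clock list held 0 of 13 past 1 log2, among them Dbp, a clock output gene, at 9.39 and 10.24.

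The remaining short lists held few members past the threshold. Of 8 kept complement genes and 4 kept genes of retinoid handling 0 passed, with medians of 0.05 and 0.19. Of 14 kept genes of endoplasmic reticulum folding, Atf4 fell and Serpinh1, the collagen chaperone, rose from 8.37 to 9.60. Retnla was the only kept member of the resistin list.

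Some of the 15 largest falls were of markers of cells other than fat cells. Others, such as Sspn, Tomm22, Rpl29 and Atf4, were of genes in no cell type list. Among the cell type lists mast cell genes had the lowest median, -1.82, with 0 risers and 6 that fell among 8 kept. Of the 7 at 7.5 or more on both arrays 5 fell. Mcpt4 and Cma1, chymases of connective tissue mast cells, went from 11.07 to 8.01 and from 10.97 to 8.50. Cpa3, the mast cell carboxypeptidase, fell from 11.34 to 9.24 on its brightest probe, with -2.12 and -0.89 on the others, and Hdc, which makes histamine, from 10.55 to 9.01. The 8 genes averaged 11.42 at e18.5 and 9.95 at P2, then 8.23 and 8.29 on the last 2 arrays.

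Fcer1g, the signalling chain of Fc receptors, is in both the mast cell and the macrophage list and went from 10.26 to 6.82, then 6.83 at P12. Most other macrophage genes did not move with it. Of 21 kept, 1 rose and 1 fell, with a median of 0.00, and Tyrobp, a related adaptor, was 7.99 and 7.82. The one that rose was Cbr2, a carbonyl reductase, from 9.24 to 10.25. Ctsc, which encodes the protease that activates granule proteases, had 3 kept probes, with differences of -3.52, -2.24 and -1.48. The first 2 of these are among the 56 probes that were flat up to P2 and again from P5 on.

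Neutrophil and stefin genes had 5 that fell and 0 that rose among 6 kept, with a median of -1.42, but only S100a8 stood at 7.5 or more on both arrays. All 18 listed genes on the array averaged 7.68 at P2 and 7.14 at P5. Stfa1, a stefin, went from 10.48 to 7.11, S100a8, a subunit of calprotectin, from 9.88 to 8.22, and Ltf, lactoferrin, from 8.28 to 7.10. Mmp9, a matrix protease, was 7.33 and 7.99. The mean of the 6 had been at its highest, 10.99, at e18.5.

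Lymphocyte and lymph node genes had 8 that fell and 0 that rose among 13 kept, with a median of -1.11. Only 4 of the 13 stood at 7.5 or more on both arrays, of which 2 fell, and the other 9 were kept through P2 alone. With the mean of a gene's kept probes 6 of the 13 fell. All 21 on the array averaged 8.09 at P2 and 7.33 at P5. The lymph node chemokine Ccl19 went from 9.71 to 7.28, the T cell genes Cd8b1 and Cd3g from 9.27 to 7.15 and from 8.65 to 7.20, and the B cell gene Cd79b from 8.28 to 7.18. The 13 genes averaged at most 7.70 on the arrays before P2, 8.77 at P2, 7.61 at P5 and 9.56 at P12. That their mean was higher at P2 than at P5 follows in part from the 9 genes kept through P2 alone. Csn3, a milk protein gene of the mammary list, went from 9.18 to 6.84, and Krt8 of simple epithelia from 8.46 to 7.06.

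Epidermal genes had 6 that fell and 0 that rose among 9 kept, with a median of -1.58. Only 2 of the 9 stood at 7.5 or more on both arrays, of which 1 fell, and the other 7 were kept through P2 alone. All 23 on the array averaged 7.88 at P2 and 7.05 at P5. Loricrin, Lor, of the cornified envelope, went from 11.18 to 6.92, and the keratin genes Krt14 and Krt10 from 10.50 to 6.97 and from 11.79 to 8.95. They averaged 9.23 at P2, then 7.32 and 7.27 on the last 2 arrays. The mean levels of the kept genes of the muscle and epidermal lists at P5 were near those at P12. They were below those at P2, which follows in part from the genes kept through P2 alone. The part of these cells in the falls of other genes was not tested.

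**Figure D5:**
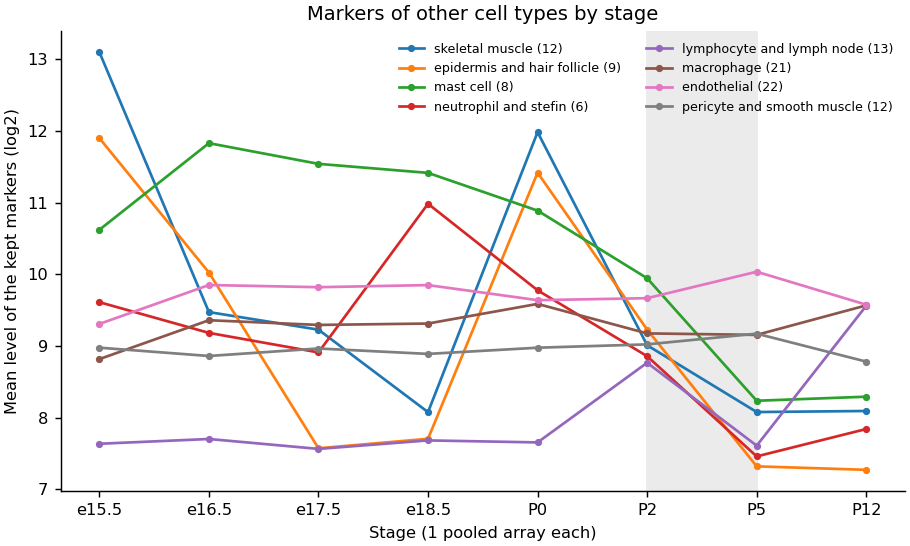
Mean level (log2) of the kept markers of 8 cell types against stage, with 1 pooled array per stage and the number of markers in brackets. Grey marks P2 to P5. The means of the muscle, epidermal, mast cell, neutrophil and lymphocyte markers were lower at P5 than at P2, and those of macrophage, endothelial and pericyte markers differed by less than 0.5. Markers kept through P2 alone had to be lower at P5.

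Of 22 kept endothelial genes 0 rose or fell by 1 log2, while 20 were above 0, with a median of 0.43. Egfl7, a secreted endothelial protein gene, was 12.23 and 12.96, and Pecam1, an adhesion molecule of endothelium, 10.68 and 11.15. Of 12 kept pericyte and smooth muscle genes Rgs5, a regulator of G protein signalling in pericytes, rose from 8.27 to 10.41, with a list median of 0.08. Acta2, the smooth muscle actin, was 13.61 and 12.68 on its brightest probe, while its 3 other kept probes were past 1 log2, with differences of -1.22, -1.28 and -1.29. Actg2, another smooth muscle actin, outside the list, fell from 9.43 to 8.08. Gja5, a gap junction gene of arteries, had kept probes with differences of -1.05 and -0.59. Actg2 and Gja5 were named after their values had been seen. Of 7 kept Schwann cell genes Mbp, a myelin protein gene, rose from 9.39 to 10.94 on its brightest probe.

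In the other marker lists few genes were kept. The erythroid list had Slc4a1, the anion exchanger of red cells, lower, from 9.95 to 8.47, beside the globins given above, and Alas2, of red cell heme synthesis, at 10.45 and 10.75. Of 5 kept class II histocompatibility genes H2-Eb1 fell, from 8.54 to 7.08, while H2-Ab1 was 8.61 and 9.52. The cartilage and bone, mesothelium and melanocyte lists had 1, 1 and 2 kept members, and 0 of them passed. Xist, which is read from the inactive X chromosome, was 7.53 and 8.91 on 1 probe and 7.78 and 8.16 on the other, and the Y-linked Eif2s3y, which stood at 7.61 at P0, was 6.80 and 6.78. The sex of the pooled animals is not given.

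The remaining genes among the 15 largest falls had other roles. Sspn, sarcospan of the dystrophin complex, fell furthest, from 11.15 to 6.77, at least 12.5-fold. It did not follow the muscle markers earlier, since it stood at 10.24 at e18.5. On the 6 arrays up to P2 it stood between 10.24 and 11.22, and at P12 at 6.81. Sspn thus also held a high level up to P2 and a low one from P5 on. It varied too much before P5 to be among the 56 flat probes. Uap1, of amino sugar synthesis, went from 9.77 to 7.30, with 11.51 at e18.5 and 7.47 at P12. Wfdc2, a whey acidic protein family gene of epithelia, went from 9.46 to 6.83.

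Genes with several probes were used to ask whether probes of a gene told the same story. Of 1428 genes with 2 or more kept probes, the median gap between the highest and the lowest difference was 0.14, and the 95th percentile of the gaps was 0.66. In 72 of these genes at least 1 probe was past 1 log2. In 18 of the 72 every kept probe was past it in the same direction, and in 32 another kept probe lay within 0.5 of 0 or on the other side of it, with the other 22 between. Disagreement was found for 12 of 32 genes with a rising probe (37.5%) and 20 of 40 with a falling probe (50%). With 8 required in place of 7.5, 22 of the genes disagreed, 17 had every kept probe past 1 log2 in the same direction and 14 lay between.

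The 18 genes with every kept probe past the threshold included Tfrc, Cpt1b, Pygl and Sncg. Both Cma1 probes fell, with differences of -2.47 and -2.37. The 3 probes of Cyp27a1, a sterol hydroxylase, rose by 1.49, 1.38 and 1.20, and those of Lims2, an adhesion adaptor, by 1.34, 1.29 and 1.19.

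Among genes whose probes disagreed, the widest gaps came with a probe that fell to near the floor. Mtus1, a microtubule-associated gene, had 1 probe at 8.86 and 6.81, and 2 others at 8.60 and 8.99 and at 8.62 and 8.96. Rmdn3, a mitochondrial tether, had probes at 8.98 and 7.13 and at 8.39 and 8.77. Ercc5, a DNA repair nuclease, had probes at 9.19 and 7.25 and at 8.44 and 8.69. For Insig2, which holds back sterol synthesis, they were at 9.39 and 7.46 and at 9.08 and 9.02. Of the 56 flat probes, 21 had another kept probe of the gene. In 10 of these 21 another probe differed by less than 0.5, and in 9 another was past 1 log2 in the same direction.

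Disagreement also touched genes that would otherwise count as risers. Cxcl12, a chemokine of stromal cells, rose from 10.59 to 12.21 on its brightest probe, while its other kept probes were at 9.40 and 9.18 and at 9.01 and 8.90. The other kept probes of Mbp were at 8.41 and 8.37 and at 7.26 and 8.01. Ugt1a6a, of a locus whose transcripts share exons, had 1 probe at 8.81 and 9.87 and another at 7.70 and 7.23. Probes of a gene can read different transcript forms, and the transcript each probe reads was not analysed here.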

How the data were processed

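The authors deposited log2 intensities for 25697 probes, with 1 column for each of the 8 arrays. The log base was read from their range and is not stated. RNA was amplified and labelled with biotin, and images were processed with BeadStudio, per the labels' protocols. How background was corrected and arrays were normalized is not given in the sources used here. A second deposited table was not used, since its 16 per-sample columns match no sample label.

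Probes at 7.5 or more at P2 or P5 were kept, and P5 minus P2 was counted past 1 log2, with no test, since each stage had 1 pool. A fold against a level below 7.5 is given against 7.5, as "at least". The number of arrays limits the precision. Of the 25697 probes 23978 had 1 gene symbol in the platform annotation, 0 had several and 1719 are unnamed here. Of 1008 genes in the 47 lists, 905 were matched, 16 through a synonym. The members, lists and comparisons were chosen with earlier results of these data known.

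Genes named are the 15 largest rises and 15 largest falls by brightest probe, up to 5 per list past 1 log2, members of known function that were not, up to 10 genes with disagreeing probes, and the sex-linked and haplotype-specific transcripts. Others are said to be named after their values had been seen. Alternatives were other minimum levels, lowess centring (span 0.3), a difference of 1.5 log2, and genes by their brightest probe or the mean of their kept probes. Counting was tested on simulated data. Sequences are RefSeq's, build GRCm38.p6. Python 3.11.15, pandas 2.3.3, numpy 2.4.6, statsmodels 0.14.6 and matplotlib 3.10.9 were used.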

Additional observations from a re-analysis of the deposited data

How the results depend on the processing

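The count of higher probes (132) was 42 at a difference of 1.5 log2, and between 98 and 134 under the other settings. The count of lower probes (189) was 82 at 1.5 log2 and 93 with 7.5 required on both arrays, by construction of fewer probes kept, and between 149 and 191 under the others. With 7.5 on both arrays the counts past 1 log2 were 260 from e15.5 to e16.5, 167 from e18.5 to P0, 147 from P0 to P2 and 191 from P2 to P5. Under that setting the median of the mammary list was 0.36 with 1 gene left, against -1.07, and that of the muscle list -0.30 with 4 genes left.

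With the mean of a gene's kept probes, 13 of 92 named genes moved by over 0.5 log2 and 79 did not, and lowess centring moved 0 of 92. Among the 13, Cxcl12 became 0.43, Mbp 0.75, Ctsc -2.42 and Myh8 -1.87. No paired analysis was possible because each stage had 1 pooled sample.

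Dim probes limit what can be said, since falls to below 7.5 have no measured size. No replicate gives the spread between pools, and the brightness of beta globin probes differed between the pools up to P2 and those from P5 on.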

Other observations

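Immune genes outside the lists, named after their values had been seen and with no list or count behind them, moved both ways from P2 to P5. Cd209b, a lectin of the DC-SIGN family, went from 7.23 to 9.09 on its brightest probe, and Slamf9, a leukocyte receptor gene, from 7.47 to 8.60. Cd52, a surface glycoprotein of lymphocytes, went from 10.48 to 8.50 and was 10.79 at P12. Plac8, a gene known from leukocytes, went from 9.58 to 7.61 and was 9.24 at P12. Mrgprb2, a receptor of connective tissue mast cells in mice, went from 9.68 to 7.68 and was 7.63 at P12. Lgals3, galectin 3, went from 12.36 to 10.26.

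Epidermal genes outside the lists followed Lor. The cornified envelope gene Lce1c went from 8.90 to 7.01 and Calm4, a calmodulin-like gene of the epidermis, from 8.60 to 6.81, after levels of 12.16 and 11.52 at P0. Of 4 kept late cornified envelope genes 3 fell and 0 rose.

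Probes of genes with a symbol that begins with H2- moved both ways. Of 11 kept genes named H2-, 2 rose and 2 fell, with a median of 0.42, and near-identical copies may share a probe. The 2 that rose, H2-T10 and H2-Q8, are both among the 56 flat probes. The 2 that fell were H2-Eb1, from 8.54 to 7.08, and H2-T23, from 9.33 to 8.09. At P12 they were at 7.28 and 8.28. Gm8909, listed as a gene model, rose from 8.50 to 11.16, and H2-Q8 from 7.24 to 8.61.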
